A study of Mus musculus with 21 samples.

Results

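miR-7689-3p, miR-6944-3p and miR-1247-5p, 3 little-studied microRNAs, are described here across the left ventricles of 21 C57BL/6J mice. They were picked because an earlier look at these same libraries found them higher after pressure overload than after sham surgery, so their difference between TAC and Sham is how they were chosen and is given as a description without a test. The other arms of their 3 hairpins are described with them, which makes 6 of the 1903 microRNAs named in the count table, of which 4 had a count in any library.

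MicroRNAs were sequenced from flash-frozen left ventricle myocardium, 1 library per mouse. The TAC+PDE5A-I group (5 mice) had cardiac pressure overload by TAC, the usual abbreviation of transverse aortic constriction, and sildenafil, which inhibits phosphodiesterase 5A. The TAC+PDE9A-I group (6 mice) had TAC and PF-04449613, which inhibits phosphodiesterase 9A. The TAC group (5 mice) had TAC and no drug, and the Sham group (5 mice) had sham surgery and no drug. Both drugs were given for 4 weeks from 1 week after surgery. All mice were of the same strain, and the sources used here give no dose, age or sex. The question put by the design is how inhibiting either enzyme, both of which break down cyclic GMP, changes the microRNAs of the overloaded heart.

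A microRNA is cut from a hairpin in a longer transcript. One or both arms of the hairpin, named 5p and 3p, can be loaded into an Argonaute protein, where bases 2 to 8, the seed, pair with target messenger RNAs and lower their output. In most hairpins one arm is kept and the other is degraded. Some hairpins are whole introns, named mirtrons, and are released by splicing in place of the nuclear enzyme Drosha. Others lie in imprinted regions, where only one parental copy is expressed. High-numbered microRNAs were found late, mostly by deep sequencing, and many are scarce and have no known function.

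The sequences of the counted arms come first, because they show how far the members differ from each other and from other microRNAs whose reads could be mistaken for theirs. They are the mature RNAs of RefSeq (GRCm38.p6), written 5′ to 3′ with the seed in capitals.
miR-7689-3p: uUAGAGCCagacugccuggguuu
miR-6944-3p: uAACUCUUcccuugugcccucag
miR-1247-5p: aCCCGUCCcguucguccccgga
miR-1247-3p: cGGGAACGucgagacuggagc
All 6 arms had a sequence in RefSeq. No other mature microRNA of that table has the seed of any of these 4 arms. The closest other microRNA by sequence was 7 edits away for miR-7689-3p, 6 edits for miR-6944-3p, 6 edits for miR-1247-5p and 8 edits for miR-1247-3p. Among 141767 GENCODE transcripts, the 3 chosen arms matched no other gene within 2 edits, except that miR-1247-5p is also part of Dio3os, the transcript that contains its hairpin. Base composition differed: G and C make up 52.2% of miR-7689-3p, 52.2% of miR-6944-3p, 72.7% of miR-1247-5p and 66.7% of miR-1247-3p.

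The hairpins show where the arms come from, with the arm that carried most counts in capitals.
Mir7689: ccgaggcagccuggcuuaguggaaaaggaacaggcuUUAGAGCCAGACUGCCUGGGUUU
Mir6944: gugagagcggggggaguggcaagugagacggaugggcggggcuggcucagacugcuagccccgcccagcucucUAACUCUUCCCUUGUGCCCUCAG
Mir1247: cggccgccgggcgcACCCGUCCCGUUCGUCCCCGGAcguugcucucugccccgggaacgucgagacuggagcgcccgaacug
Mir7689 (chr5:36301570-36301628, plus strand) lies in an intron of Sorcs2, a sorting receptor gene on the opposite strand, in 4 of 5 annotated transcripts. The smallest such intron lies between exons 2 and 3. Mir6944 (chr13:55477681-55477776, minus strand) is exactly the 96-base intron between exons 9 and 10 of Dbn1, the gene of the actin-binding protein drebrin, in 4 of 9 annotated transcripts. It starts with gu and ends with ag, the usual letters of an intron, and miR-6944-3p is its last 23 bases. Mir1247 (chr12:110278048-110278129, minus strand) overlaps an exon in 2 of 4 transcripts of the long noncoding RNA Dio3os, 1 of which holds it whole in an exon, 938 bases from Dio3, which encodes the enzyme that inactivates thyroid hormone. This is one end of the imprinted Dlk1-Dio3 region. Other microRNA genes within 50000 bases were found beside Mir6944 alone, namely Mir6943 and Mir6945. The 3 hairpins thus lie on 3 chromosomes and share no host gene.

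Total microRNA counts were 1205417 to 3969716 in TAC+PDE5A-I libraries, 1546318 to 7532591 in TAC+PDE9A-I, 5373960 to 8497792 in TAC and 3766517 to 7490436 in Sham. The 4 libraries under 2000000 counts were TAC+PDE5A-I 3, 4 and 5 and TAC+PDE9A-I 5. These shallow libraries stood apart in content too. Weighted by counts, G and C made up 47.7%, 48.2% and 48.6% of the mature sequence in TAC+PDE5A-I 3, 4 and 5 and 47.2% in TAC+PDE9A-I 5, and at most 46.0% in every other library. These GC values cover only the counts with a RefSeq sequence, 32.0% to 37.2% of counts in the 4 shallow libraries and 50.9% to 64.9% in the others. The 4 heart muscle markers summed to 158434 to 227498 CPM in TAC+PDE5A-I, 85193 to 202167 in TAC+PDE9A-I, 70067 to 145761 in TAC and 137162 to 158183 in Sham, and none of them was at 0 throughout any group, which fits the labelled tissue. For these marker sums, CPM stands for counts scaled to a fixed library total without TMM. For single microRNAs, CPM stands for counts scaled to a fixed library total by the TMM method (TMM-scaled CPM). Of 8 markers of other tissues, 3 had no count in any library of any group. The sum of 5 leukocyte markers was not low in TAC+PDE5A-I. Its median was 2572 CPM in TAC+PDE5A-I, 2405 in TAC+PDE9A-I, 2429 in TAC and 2253 in Sham. By their medians, the sums that follow were low in TAC+PDE5A-I. The median summed level of 2 endothelial markers was 2045 CPM in TAC+PDE5A-I, 27995 in TAC+PDE9A-I, 35690 in TAC and 33392 in Sham. That of 2 smooth muscle markers was 7455 CPM in TAC+PDE5A-I, 86464 in TAC+PDE9A-I, 87126 in TAC and 74929 in Sham. That of 3 erythroid markers was 47.2 CPM in TAC+PDE5A-I, 614 in TAC+PDE9A-I, 786 in TAC and 898 in Sham. That of the other-tissue markers was 104 CPM in TAC+PDE5A-I, 1730 in TAC+PDE9A-I, 1675 in TAC and 2002 in Sham. These sums ranged in TAC+PDE5A-I from 1111 to 17664 CPM for endothelium, 5371 to 48652 for smooth muscle and 25.7 to 469 for erythroid markers. In TAC+PDE9A-I they ranged from 3246 to 42753, 11986 to 103036 and 64.7 to 1306 CPM, in the same order. Other-tissue sums ranged from 84.6 to 1149 CPM in TAC+PDE5A-I and 243 to 2136 in TAC+PDE9A-I. Both drug groups thus overlapped in each sum.

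All 3 members were higher in TAC than in Sham without overlap, the difference they were chosen by. At an adjusted p under 0.05, TAC against Sham called 2.32% of the 561 microRNAs tested, 2.14% with TAC higher, and 16.9% did not overlap between these groups, 8.38% with TAC higher. The adjusted p that chose them was 0.00172 for miR-7689-3p and 0.0208 for each of the other two (edgeR's quasi-likelihood test with Benjamini-Hochberg adjustment). The last microRNA inside the threshold was miR-140-3p (log2 fold change 1.09 ± 0.28 SE, adjusted p = 0.0429), and the first outside was miR-455-3p (2.51 ± 0.67, adjusted p = 0.0520).

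**Figure D1:**
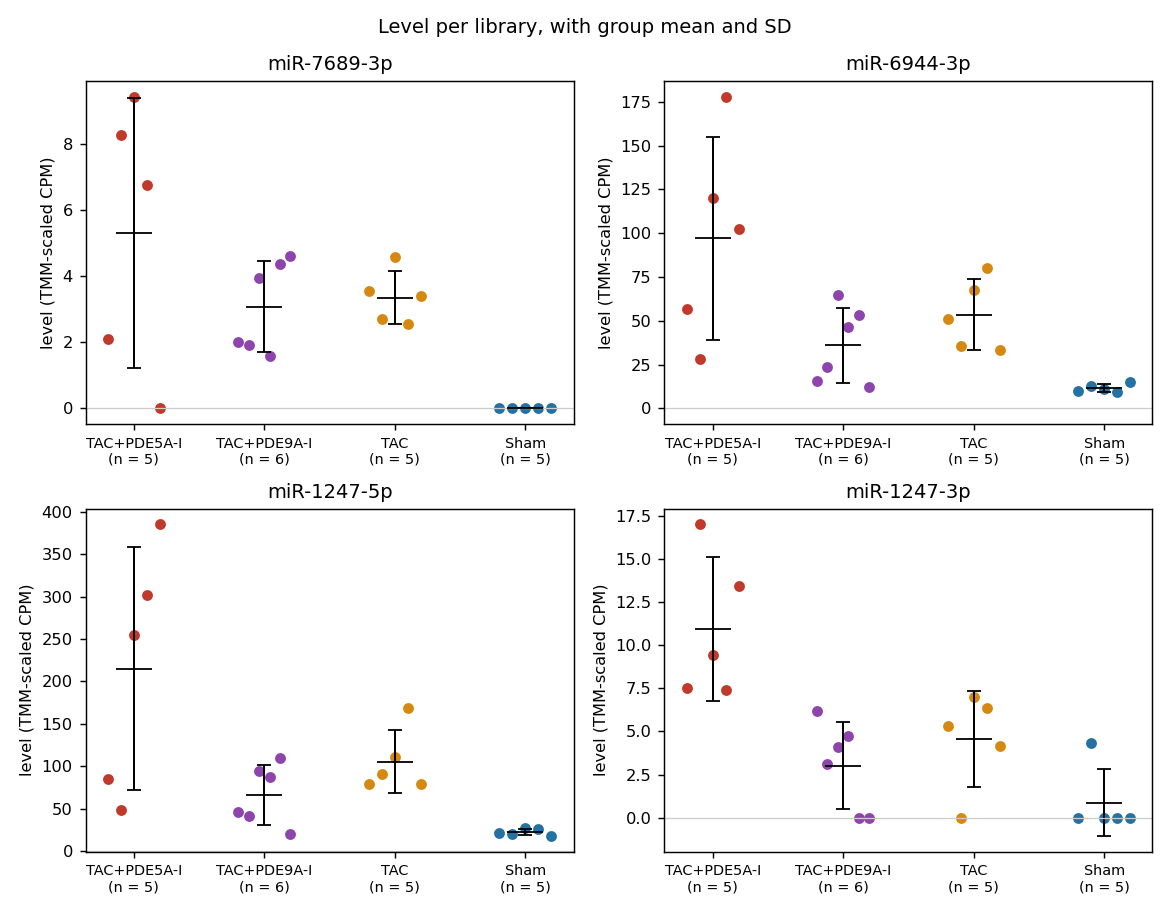
Level of miR-7689-3p, miR-6944-3p, miR-1247-5p and miR-1247-3p (TMM-scaled CPM, linear axes that differ between panels) in each library of TAC+PDE5A-I, TAC+PDE9A-I, TAC and Sham, with points for libraries, long dashes for means and bars for SD. The chosen arms lie above Sham in all 5 TAC libraries, and TAC+PDE5A-I spreads widest, from 49.0 to 385 CPM for miR-1247-5p.

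miR-7689-3p, the scarcest member, had 7, 37, 13, 10 and 0 counts in TAC+PDE5A-I, 15, 10, 26, 14, 7 and 21 in TAC+PDE9A-I, 18, 20, 32, 21 and 18 in TAC, and 0 in all 5 Sham libraries. It was thus counted in 15 of 16 libraries from hearts with TAC, drug-treated or not, and in no Sham library. The Sham libraries helped choose all 3 members, so standing above Sham is a description in every group. Its levels were 2.10, 8.27, 9.42, 6.74 and 0 CPM in TAC+PDE5A-I, 2.01, 1.93, 3.95, 1.58, 4.37 and 4.59 CPM in TAC+PDE9A-I, and 3.53, 2.69, 4.58, 2.56 and 3.39 CPM in TAC. TAC averaged 3.35 ± 0.807 CPM (SD, n = 5), 5.42-fold above a Sham level of 3 counts per library and 1.81-fold above one of 9 counts, a setting added after seeing the data. Over the groups this was 109 of 32656451 counts in TAC and 0 of 27804055 in Sham. The table limits how far a zero can be read. It holds no value of 1, its smallest value above 0 is 2, and in Sham there were 132 values from 1 to 9 but 394 from 10 to 19. A listed 0 may therefore stand for a low count, the values of this microRNA lie close to that range, and neither fold is a lower bound.

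miR-6944-3p, the intron-derived member, measured 56.6, 28.2, 120, 178 and 102 CPM in TAC+PDE5A-I, 15.7, 23.7, 64.5, 46.3, 53.1 and 12.3 CPM in TAC+PDE9A-I, 51.2, 35.8, 67.4, 80.2 and 33.3 CPM in TAC, and 9.87, 12.8, 11.3, 9.18 and 15.1 CPM in Sham. The highest Sham library was below every TAC+PDE5A-I and TAC library and below 5 of 6 TAC+PDE9A-I libraries. This is a description, and no share over all microRNAs was taken for the drug groups against Sham. Group means were 97.0 ± 58.1 CPM in TAC+PDE5A-I (SD, n = 5), 35.9 ± 21.6 in TAC+PDE9A-I (n = 6), 53.6 ± 20.2 in TAC (n = 5) and 11.6 ± 2.37 in Sham (n = 5). TAC was 4.60-fold above Sham, a log2 fold change of 2.20 ± 0.48 (SE). Behind these levels stood 56 to 657 counts in each library with TAC and 34 to 78 in each Sham library.

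miR-1247-5p, the most abundant member, measured 85.6, 49.0, 254, 302 and 385 CPM in TAC+PDE5A-I, 46.8, 41.4, 94.4, 87.7, 110 and 21.0005 CPM in TAC+PDE9A-I, 79.1, 90.9, 111, 168 and 79.0 CPM in TAC, and 21.99, 21.1, 27.3, 26.2 and 17.99 CPM in Sham. Again all libraries with TAC but TAC+PDE9A-I 6 lay above every Sham library, with the same limits. Means were 215 ± 143 CPM in TAC+PDE5A-I (SD, n = 5), 66.9 ± 35.2 in TAC+PDE9A-I (n = 6), 106 ± 37.4 in TAC (n = 5) and 22.9 ± 3.84 in Sham (n = 5). TAC was 4.61-fold above Sham, or 2.20 ± 0.49 on the log2 scale (SE). In the order of the 4 groups, TAC+PDE5A-I stood highest and Sham lowest for both miR-6944-3p and miR-1247-5p, and TAC+PDE5A-I, TAC and TAC+PDE9A-I overlapped.

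Animals carried numbered ear tags, whose first digit is the one other grouping that the labels give. Within the 100s (2 TAC, 3 Sham), TAC was 3.84-fold above Sham for miR-6944-3p and 3.62-fold for miR-1247-5p. Within the 600s (2 TAC, 2 Sham) the folds were 4.68 and 5.60, in the same order. miR-7689-3p averaged 3.11 CPM in TAC of the 100s and 2.98 in TAC of the 600s, with Sham at 0 in both. The 3 stromal markers, miR-214-3p and both miR-199a arms, moved in the same direction, summing to 5369 to 8601 CPM in TAC and 1929 to 2512 CPM in Sham. None was at 0 throughout a group, and their part in the difference was not tested. In bulk tissue, more cells of a type and more RNA per cell cannot be told apart.

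TAC+PDE5A-I against TAC+PDE9A-I was the comparison in which the members could be tested, since the contrast that chose them compared neither group. Both groups did share the filter, the scaling and the estimate of spread in the fit over all 4 groups. miR-6944-3p and miR-1247-5p were higher in TAC+PDE5A-I, and miR-7689-3p did not pass. The comparison called 34.8% of the 561 microRNAs, 15.2% higher and 19.6% lower, so 2 of 3 members called is read against a large background. miR-1247-5p was 3.22-fold higher (log2 1.69 ± 0.45 SE, adjusted p = 0.0132, edgeR's quasi-likelihood test), and miR-6944-3p 2.70-fold higher (1.43 ± 0.44, adjusted p = 0.0200). For each, 3 of 5 TAC+PDE5A-I libraries lay above every TAC+PDE9A-I library. miR-7689-3p averaged 5.31 CPM in TAC+PDE5A-I and 3.07 in TAC+PDE9A-I, a log2 fold change of 0.80 ± 0.67 (adjusted p = 0.370). The marker sums of endothelium, smooth muscle and erythroid cells given above were lower in TAC+PDE5A-I by their medians, and those of heart muscle and leukocytes were not. The stromal sum was lower too, with a median of 1606 CPM in TAC+PDE5A-I and 5976 in TAC+PDE9A-I, scaled without TMM. The part of these cell types in the members' difference was not tested. The median of all microRNAs tested was -0.25, and 0.11 with upper-quartile scaling. The split of calls also turned on the scaling, with 85 higher and 110 lower as reported, 50 and 126 with median-ratio scaling, and 138 and 90 with upper-quartile scaling, while both members stayed higher and called under these.

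Both calls were lost without the shallow libraries. The 3 high TAC+PDE5A-I libraries are replicates 3, 4 and 5, the ones under 2000000 counts, with 254 to 385 CPM of miR-1247-5p against 85.6 and 49.0 CPM in replicates 1 and 2. Without the 4 shallow libraries, an alternative chosen after seeing the data, the log2 fold change was 0.19 ± 0.44 for miR-1247-5p (adjusted p = 0.822) and 0.37 ± 0.52 for miR-6944-3p (adjusted p = 0.670), with 2 and 5 mice left. Depth and ear tag coincide here, because the 3 shallow TAC+PDE5A-I mice are also those of the 600s. Within the 500s (2 TAC+PDE5A-I, 4 TAC+PDE9A-I), the TAC+PDE5A-I mean was 0.807 times the TAC+PDE9A-I mean for miR-1247-5p and 0.903 times for miR-6944-3p, so the difference did not hold there. Within the 600s (3 and 1) it was 14.9 and 10.9 times, set against TAC+PDE9A-I 6 alone, the library at the Sham level. For miR-7689-3p the ratios were 1.75 in the 500s and 1.17 in the 600s.

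**Figure D2:**
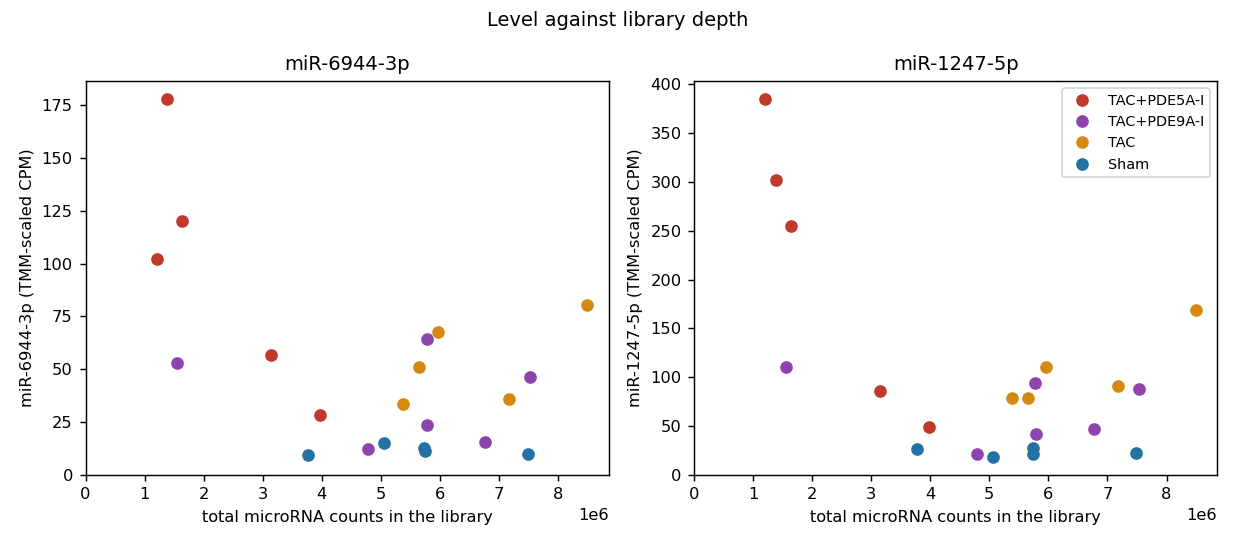
Level of miR-6944-3p and miR-1247-5p (TMM-scaled CPM) against total microRNA counts of each library, coloured by TAC+PDE5A-I, TAC+PDE9A-I, TAC and Sham. The 3 TAC+PDE5A-I libraries under 2000000 counts are the highest of all 21 for both microRNAs, while TAC+PDE9A-I 5, at 1546318 counts, lies among the TAC libraries.

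The 2 called members differed under a correction for base composition. When levels were corrected for GC content, possible for the 86.8% of tested microRNAs with a sequence, the log2 fold change of miR-6944-3p was 1.56 ± 0.45 (adjusted p = 0.0268) and that of the GC-rich miR-1247-5p was 0.51 ± 0.33 (adjusted p = 0.287). The call of miR-1247-5p thus ended with the correction. That fit left out microRNAs without a sequence. Counts with a sequence were 32.0% to 37.2% of the total in the 4 shallow libraries and 50.9% to 64.9% in the others. Both calls were also lost with the ear tag range as a term, at 1.39 ± 0.56 for miR-6944-3p (adjusted p = 0.0788) and 1.35 ± 0.59 for miR-1247-5p (adjusted p = 0.0985). In a fit of the 2 drug groups alone, which called no microRNA at all, they were 1.23 ± 0.52 (adjusted p = 0.131) and 1.50 ± 0.55 (adjusted p = 0.105). Leaving out 1 library ended the call of miR-6944-3p without TAC+PDE5A-I 3, 4 or 5, TAC+PDE9A-I 2 or 6, or Sham 5 (adjusted p = 0.0506 to 0.147), and that of miR-1247-5p without TAC+PDE5A-I 3, 4 or 5 or TAC+PDE9A-I 2 (0.0543 to 0.0695). With counts thinned to 1205417 per library both were called, at 1.14 ± 0.41 for miR-6944-3p (adjusted p = 0.0365) and 1.50 ± 0.44 for miR-1247-5p (adjusted p = 0.0165).

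**Figure D3:**
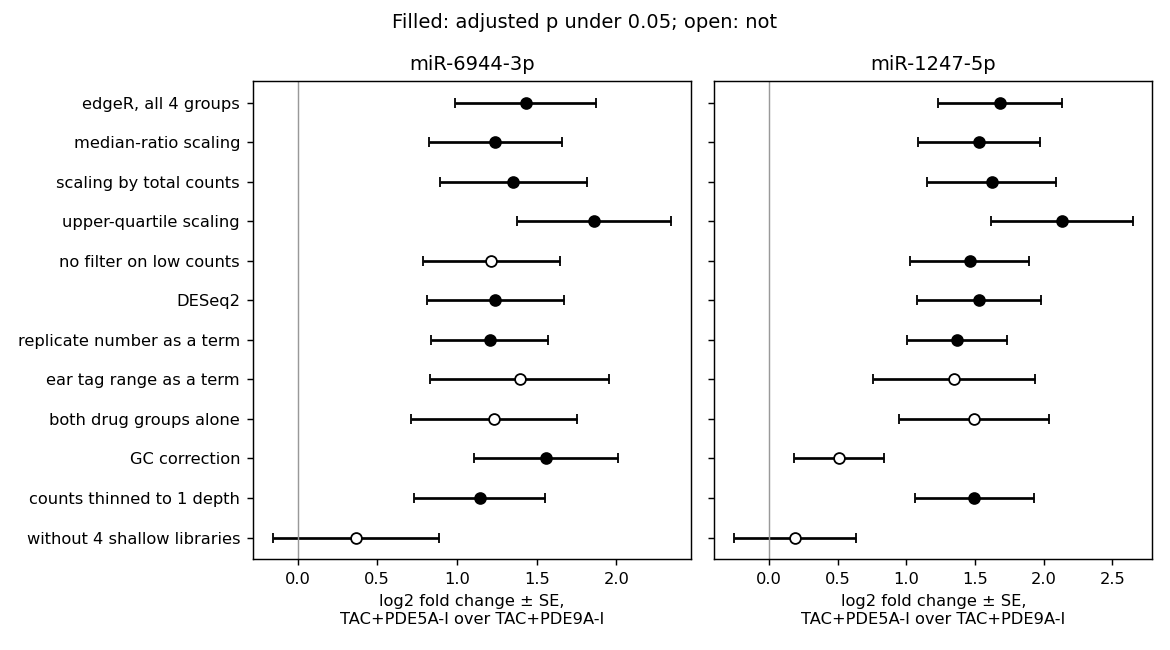
Log2 fold change with SE of miR-6944-3p and miR-1247-5p in TAC+PDE5A-I over TAC+PDE9A-I under each way of fitting, with filled points for an adjusted p under 0.05. All values are above 0, between 0.37 and 1.86 for miR-6944-3p and between 0.19 and 2.13 for miR-1247-5p, and open points mark the fits that lost the call.

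Against TAC, which helped choose the members and is shared by both drug comparisons, values are descriptions. Log2 fold changes of TAC+PDE5A-I over TAC were 0.66 ± 0.70 (SE) for miR-7689-3p, 0.85 ± 0.46 for miR-6944-3p and 1.02 ± 0.47 for miR-1247-5p. Without the 4 shallow libraries those of miR-6944-3p and miR-1247-5p turned to -0.32 ± 0.54 and -0.64 ± 0.46, and with the GC correction that of miR-1247-5p turned to -0.46 ± 0.34. In TAC+PDE9A-I over TAC they were -0.14 ± 0.66 for miR-7689-3p, -0.58 ± 0.44 for miR-6944-3p and -0.66 ± 0.45 for miR-1247-5p. No TAC+PDE9A-I library exceeded the highest TAC library for miR-6944-3p or miR-1247-5p, and the groups overlapped. TAC+PDE5A-I against TAC called 46.3% of microRNAs, while TAC+PDE9A-I against TAC called 0% with edgeR (16 at an unadjusted p under 0.05) and 2 microRNAs with DESeq2.

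Of the minor arms, those of miR-6944 and miR-7689 had no count in any library. For miR-6944 this was 0 of 4222 counts and for miR-7689 it was 0 of 269. As listed zeros may stand for low counts, no upper limit is set on these shares. miR-1247-3p took 447 of 8716 counts of its hairpin, or 5.13% (95% exact binomial interval 4.67 to 5.61, which covers counting error only).

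miR-1247-3p, which was not chosen by its values, had 25, 76, 13, 11 and 18 counts in TAC+PDE5A-I, 46, 16, 27, 42, 0 and 0 in TAC+PDE9A-I, 27, 0, 49, 52 and 22 in TAC, and 0, 23, 0, 0 and 0 in Sham. Its levels were 7.48, 17.0, 9.42, 7.42 and 13.4 CPM in TAC+PDE5A-I and 0 to 6.16 CPM in TAC+PDE9A-I, which do not overlap, as for 1.96% of all microRNAs (1.25% with TAC+PDE5A-I higher). The difference did not pass (log2 1.80 ± 1.14, adjusted p = 0.213). TAC ranged from 0 to 7.02 CPM, below every TAC+PDE5A-I library, where 33.9% of microRNAs do not overlap (log2 1.26 ± 1.19, adjusted p = 0.407). TAC+PDE9A-I over TAC was -0.54 ± 1.12 (adjusted p = 0.991). The 3p share of miR-1247 counts was 7.28% in TAC+PDE5A-I (interval 6.17 to 8.52), 5.54% in TAC+PDE9A-I (4.65 to 6.54), 3.95% in TAC (3.35 to 4.61) and 3.93% in Sham (2.51 to 5.84). One library, TAC+PDE5A-I 2, had a share of 25.8% (20.9 to 31.2). Without it the TAC+PDE5A-I share was 4.02%, and without Sham 2, which held all 23 counts of its group, the Sham share was 0 of 450 counts. In TAC 2 the arm was listed at 0 beside 676 counts of miR-1247-5p. With counts thinned to one depth, the shares were 4.74% in TAC+PDE5A-I, 3.44% in TAC+PDE9A-I, 3.88% in TAC and 2.52% in Sham.

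Before GC correction, miR-1247-5p and miR-6944-3p kept step over the libraries. With it, log2 levels in TAC+PDE5A-I were 7.19, 6.21, 7.66, 7.93 and 8.14 for miR-1247-5p. Those of miR-6944-3p were 6.52, 5.60, 7.75, 8.49 and 8.06. In TAC they were 7.97, 7.70, 7.90, 8.67 and 7.61 for miR-1247-5p, and 6.57, 5.99, 6.78, 7.01 and 5.86 for miR-6944-3p. The gap was thus narrower or reversed in TAC+PDE5A-I. Ratios and patterns below are uncorrected. The ratio of miR-1247-5p to miR-6944-3p counts averaged 2.17 ± 0.92 in TAC+PDE5A-I (SD, n = 5), 1.98 ± 0.53 in TAC+PDE9A-I (n = 6), 2.04 ± 0.44 in TAC (n = 5) and 2.07 ± 0.65 in Sham (n = 5), between 1.19 and 3.77 in single libraries. Of all tested microRNAs, each was the other's nearest pattern. Both were chosen by the TAC and Sham libraries, 10 of the 21, so nearness there rests in part on that choice. Their log2 CPM, centred on each one's mean over the 21 libraries, differed by 0.314 per library on average, where the median microRNA differed by 1.39 from miR-6944-3p. Next came miR-214-3p, at 0.374 from miR-6944-3p and 0.424 from miR-1247-5p, and miR-127-3p, at 0.497 and 0.552. miR-214-3p, a stromal marker, measured 463 ± 196 CPM in TAC+PDE5A-I (SD, n = 5), 269 ± 174 in TAC+PDE9A-I (n = 6), 249 ± 67.3 in TAC (n = 5) and 71.5 ± 10.8 in Sham (n = 5). The sum of the 3 stromal markers, of which it is 1, did not follow it. The median of that sum, scaled without TMM, was 1606 CPM in TAC+PDE5A-I, 5976 in TAC+PDE9A-I, 6358 in TAC and 2096 in Sham. miR-127-3p is from the Dlk1-Dio3 cluster.

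**Figure D4:**
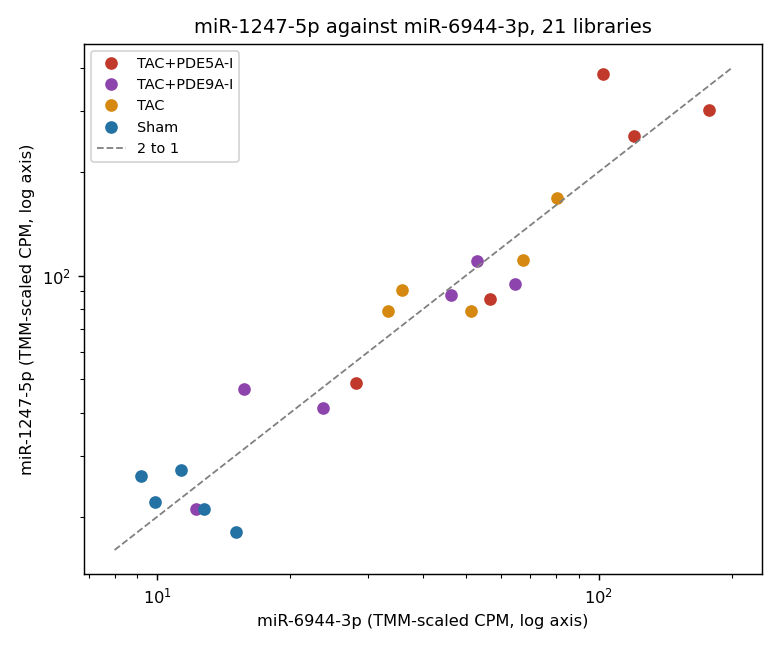
Level of miR-1247-5p against miR-6944-3p (TMM-scaled CPM, both axes logarithmic) in the 21 libraries of TAC+PDE5A-I, TAC+PDE9A-I, TAC and Sham, with a dashed line where miR-1247-5p is 2 times miR-6944-3p. Points of every group lie along the line, with count ratios from 1.19 to 3.77.

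Without a GC correction, the likeness was also seen in the drug libraries, which the contrast that chose the members did not compare. Over the 11 drug libraries alone, a view added after seeing the data, the 2 differed by 0.305 per library and were again nearest to each other, with miR-125b-1-3p next (0.408 from miR-6944-3p and 0.457 from miR-1247-5p). Over the 10 TAC and Sham libraries they differed by 0.324, each ranking sixth from the other. There miR-6944-3p lay nearest to miR-34c-5p (0.177) and miR-1247-5p nearest to miR-199a-5p (0.232). These points share library, depth and scaling.

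miR-7689-3p did not keep step with them in the drug libraries. Its nearest patterns over all 21 libraries were miR-6944-3p (0.980), miR-1247-5p (1.01) and miR-214-3p (1.01), against a median of 1.52, and with a prior count of 0.5 in place of 2, only 1 of these 3 stayed among its nearest. Over the 11 drug libraries miR-6944-3p ranked 257 and miR-1247-5p 267 of its neighbours, at 1.19 and 1.23. Over the TAC and Sham libraries its nearest were miR-208b-5p (0.221) and miR-208b-3p (0.497), arms of the hairpin in the gene of slow myosin. Nearness in those libraries rests on the contrast that chose it. miR-1247-3p lay nearest to miR-501-5p (0.898), miR-1231-3p (1.16) and miR-7018-3p (1.16), and miR-1247-5p ranked 6 for it at 1.24.

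Among high-numbered microRNAs (5000 or more), 785 names were in the table, 168 had a count and 47 were tested. By mean level miR-6944-3p ranked 3 of the 47, at 48.9 CPM over all libraries, and miR-7689-3p ranked 29, at 2.94 CPM. In TAC+PDE5A-I against TAC+PDE9A-I 4 of 47 were higher, 2 were lower and 41 missed the threshold. Over all 561 microRNAs 34.8% were called. The list's median log2 fold change was 0.29, beside -0.25 over all. The others higher were miR-8112 (1.26 ± 0.29, adjusted p = 0.00611), miR-5122 (1.00 ± 0.29, adjusted p = 0.0151) and miR-8114 (1.06 ± 0.38, adjusted p = 0.0351), all by edgeR. The 2 lower were miR-6929-3p (adjusted p = 0.0132) and miR-6911-3p (adjusted p = 0.0328), also by edgeR. Both averaged 0 CPM in TAC+PDE5A-I, where a listed 0 may stand for a low count, and 2.12 and 3.96 CPM in TAC+PDE9A-I. In TAC+PDE5A-I against TAC, where 46.3% of all were called, 4 of 47 were higher and 3 lower, and in TAC+PDE9A-I against TAC none was called. In TAC against Sham 2 of 47 were called, where 2.32% of all were called. Both are members that this contrast chose. The list's median there was -0.21 beside -0.08 over all.

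Mir6944 is 1 of 16 hairpins, of 1005 in RefSeq, that equal an annotated intron. These have 30 arms in the table, 13 with a count and 9 tested. In TAC+PDE5A-I against TAC+PDE9A-I, 4 of 9 were higher, none was lower and 5 missed the threshold, where 15.2% of all 561 were higher and 34.8% called. Their median was 0.84, beside -0.25 over all. Beside miR-6944-3p these were miR-1981-3p (0.63 ± 0.18, adjusted p = 0.0149), miR-1981-5p (0.95 ± 0.28, adjusted p = 0.0155) and miR-877-5p (1.11 ± 0.33, adjusted p = 0.0157), by edgeR. In TAC against Sham, the contrast that chose it, miR-6944-3p was the 1 called of the 9, where 2.32% of all were called. The list's median there was 0.08, beside -0.08 over all. Intron-derived miR-7068-3p, at a similar level, had a level of 78.9 ± 21.7 CPM in TAC hearts and 66.9 ± 6.77 CPM in Sham hearts (SD, n = 5 each; log2 0.24 ± 0.24, adjusted p = 0.832 by edgeR).

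Of the Dlk1-Dio3 cluster, at whose end Mir1247 lies, 115 arms were in the table, 72 had a count and 59 were tested. In TAC+PDE5A-I against TAC+PDE9A-I, 6 were higher and 10 lower, where 34.8% of all microRNAs were called, with a median of -0.65 beside -0.25 over all. miR-1247-5p and miR-540-3p (0.88 ± 0.24, adjusted p = 0.0132) were among the higher, and miR-136-5p (-3.58 ± 0.75, adjusted p = 0.00374) and miR-136-3p (-2.79 ± 0.75, adjusted p = 0.0132) among the lower, by edgeR. Also lower by edgeR were miR-369-3p (adjusted p = 0.00127) and miR-337-3p (adjusted p = 0.00522). Both averaged 0 CPM in TAC+PDE5A-I, where a listed 0 may stand for a low count, and 2.40 and 2.84 CPM in TAC+PDE9A-I. Against TAC, TAC+PDE5A-I had 5 higher and 16 lower, where 46.3% of all were called, with a median of -0.90 beside -0.31 over all. TAC+PDE9A-I had none called, as over all, with a median of -0.29 beside -0.04. In TAC against Sham 3 of 59 were higher, where 2.32% of all were called and 2.14% were higher. They were miR-1247-5p, which this contrast chose, miR-127-3p (1.17 ± 0.29, adjusted p = 0.0349) and miR-300-3p (0.94 ± 0.23, adjusted p = 0.0374), by edgeR. The median was 0.56 beside -0.08 over all.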

How the data were processed

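The authors deposited raw counts per mature microRNA for 21 libraries, not normalised. The submitters' processing notes name Bowtie 1.1.1, cutadapt 1.8, CASAVA 1.8.4 and DESeq 1.26.0 but no roles. Genome build and microRNA annotation are not given in the sources used. Of 25958 lines, 1903 carry a name and 24055 are blank and were left out. The 561 microRNAs that passed filterByExpr were scaled by TMM and fitted over all 4 groups with a robust quasi-likelihood model in edgeR 4.0.16 (R 4.3.3), adjusted by Benjamini-Hochberg over the 561 and called at an adjusted p under 0.05. Errors of log2 fold changes are standard errors from the F statistic. The model was tested on simulated data. Profiles used log2 CPM with a prior count of 2. DESeq2 1.42.0, other scalings, filters, covariates, a GC correction (loess, span 0.75), thinning and leaving out libraries were alternatives. Mature sequences, hairpins and coordinates are from RefSeq (GRCm38.p6), and gene structures from GENCODE M21. Libraries come from different mice, by ear tag. With no molecular identifiers, reads are not independent molecules.

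The members and lists were chosen with earlier results of these data known. MicroRNAs were named by rule: the members and their other arms, the 3 nearest patterns of each, and neighbours. For the lists the rule was up to 4 called members per comparison, smallest p first, but it was not kept throughout. miR-8114, miR-6911-3p, miR-136-3p and miR-540-3p were named outside it, and no list member was named for TAC+PDE5A-I against TAC. Members of the intron list, miR-125b-1-3p, miR-34c-5p, miR-199a-5p and both arms of miR-208b were named after their values were seen.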

Additional observations from a re-analysis of the deposited data

Results flagged for a closer look

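miR-1247-3p was counted in 1 of 5 Sham libraries, Sham 2, at 4.32 CPM, with the other 4 at 0, so that library stood apart from its group. Of 15 groups examined in this way 1 stood out. With 4 libraries tied at 0, any count in the remaining library is flagged. The usual chance rate of about 1 in 20 therefore does not apply. As the table lists few low values, the zeros may stand for low counts. Sham 2 was not apart for miR-1247-5p, at 21.1 CPM within 17.99 to 27.3 CPM of Sham.

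TAC+PDE5A-I and TAC+PDE9A-I differed for both abundant members, by a test of the difference itself, as TAC is common to both drug comparisons. Drug, depth and ear tag cannot be told apart in the 3 high TAC+PDE5A-I libraries. The log2 difference of TAC+PDE5A-I over TAC+PDE9A-I was 1.69 for miR-1247-5p (adjusted p = 0.0132) and 1.43 for miR-6944-3p (adjusted p = 0.0200) by edgeR. Both calls were lost without the 4 libraries under 2000000 counts, at 0.19 and 0.37. They were also lost with the ear tag term and in the 2 drug groups alone. With all libraries, 34.8% of all microRNAs were called in TAC+PDE5A-I against TAC+PDE9A-I.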

How the results depend on the processing

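Members' log2 fold changes in TAC+PDE5A-I over TAC+PDE9A-I kept their direction under every alternative run. Those of TAC over Sham ranged from 2.06 to 2.38 for miR-6944-3p and 2.14 to 2.41 for miR-1247-5p with all libraries or without the shallow ones, and from 2.01 to 2.50 and 1.98 to 2.38 leaving out 1 library. In TAC+PDE5A-I over TAC+PDE9A-I, miR-6944-3p lost its call with no filter (1.22, adjusted p = 0.0591), in the groups alone (1.23), with the ear tag term (1.39) and without the 4 shallow libraries (0.37), and miR-1247-5p in the groups alone (1.50), with the ear tag term (1.35), the GC correction (0.51) and without the shallow libraries (0.19). Leaving out 1 library gave 0.85 to 1.56 for miR-6944-3p, 1.12 to 1.72 for miR-1247-5p and 0.38 to 0.94 for miR-7689-3p. The cause of these changes was not tested. miR-7689-3p was not among those tested after thinning.

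The 195 microRNAs called in TAC+PDE5A-I against TAC+PDE9A-I became 0 in the groups alone, 115 with the ear tag term, 71 with the GC correction and 104 without the shallow libraries (72 to 252 without 1 library). The 260 of TAC+PDE5A-I against TAC (121 higher) became 142 with the GC correction and 122 without the shallow libraries (165 to 280), and upper-quartile scaling gave 172 higher and 110 lower. The 0 of TAC+PDE9A-I against TAC became 1 with the GC correction, 1 under upper-quartile scaling, 2 with DESeq2 and 2 without the shallow libraries (0 to 1). The 13 of TAC against Sham became 20 with no filter, 98 in the groups alone, 4 with the ear tag term, 27 with the GC correction, 48 with DESeq2 and 75 without the shallow libraries (3 to 32).

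Replicate numbers do not pair the mice: the 30 same-numbered pairs had a mean correlation of 0.00939, and 7 exceeded 0.1. With the replicate block, TAC+PDE5A-I against TAC+PDE9A-I called 172 and gave 1.21 for miR-6944-3p (adjusted p = 0.0283) and 1.37 for miR-1247-5p (0.0218). It called 264, 0 and 14 in TAC+PDE5A-I against TAC, TAC+PDE9A-I against TAC and TAC against Sham. miR-7689-3p had 0 to 37 counts per library and miR-1247-3p 0 to 76, and the table's missing low values limit both.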
